A study of Mus musculus with 18 samples.

Results

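Cytosolic ribosomal protein genes encode the proteins of the large (60S) and small (40S) subunits of the ribosome that translates nuclear mRNAs. Members were the protein coding genes of GRCm38 whose symbol follows the Rpl, Rplp, Rps or *Rpsa* pattern and for which 2 or more of the 18 libraries held 10 or more counts. Of 87 rows with the pattern 83 were protein coding, and 81 of these passed, 50 of the large and 31 of the small subunit, among 14979 genes tested in all. The remaining 2 were paralogs, *Rpl10l* with 0 counts in every library and *Rpl3l* with 0 to 3 counts. *Rps4l*, *Rpl6l*, *Rpl32l* and *Rps12l1* are annotated as pseudogenes and were not members.

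Bone marrow-derived macrophages (BMDM) of female C57BL/6J mice aged 12 weeks, grown with L929 supernatant, were sequenced in 6 groups with 3 libraries each. Cells received vehicle (Veh, 0.1% DMSO), 250 µM hemicholinium-3 (HC3), which blocks choline uptake, or 5 µM RSM-932a (RSM), a choline kinase inhibitor, for 24 h. For the next 24 h they stayed naïve (M[0]) or were given IL-4 at 20 ng/mL, which polarizes them to the M[IL-4] state. The labels name 3 individual mice as the source but not which library came from which mouse, so the p-values measure the spread between these libraries. No allele or transgene was involved, and all groups share the culture, while the labels name DMSO for the vehicle only and give no solvent for the inhibitors. The comparisons address how blocking choline uptake or use changes naïve and IL-4-polarized macrophages, here for the mRNAs of the ribosome itself.

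Each ribosome holds a single copy of nearly every ribosomal protein, so cells make these proteins in matched amounts, and their mRNAs are among the most abundant of a growing cell. Most of these mRNAs begin with a C followed by a run of pyrimidines, the terminal oligopyrimidine (TOP) motif, through which mTORC1 and the binding protein LARP1 control their translation. Because this control acts on translation, mRNA level and protein output of these genes need not move together. Several ribosomal proteins have a paralog that can take the same place in the ribosome, and mice carry many processed pseudogenes of them, which limits how uniquely short reads can be assigned.

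The start of the transcript was not used to choose the members. A start listed by RefSeq (GRCm38.p6) was found for 61 of 81 members, with 72 starts in all. The 30 bases around the start are shown for 3 members with a long pyrimidine run (*Rps6*, *Rpl35* and *Rpl27a*), for 2 without one that fell in an inhibitor comparison below (*Rpl37a* and *Rps15*) and for the paralog *Rpl39l*. Capitals mark the C and the pyrimidines after it.
Rps6 (chr4:86857352-86857381, minus strand): agcggaagtcgggCCTCTTTTTCgtgacgc
Rpl35 (chr2:39005116-39005145, minus strand): ggccccgCCCTTTCCTCTTTCTCTCgaacc
Rpl27a (chr7:109519181-109519210, plus strand): acttcgtgagCTCCTCCCTTTTCCCTTTCT
Rpl37a (chr1:72711246-72711275, plus strand): tccgctcgccggtctaaaaccgcgcatgcg
Rps15 (chr10:80292417-80292446, plus strand): ccggcagagctcgcgataactgcgcaagcg
Rpl39l (chr16:10170214-10170243, plus strand): tcccaggCCTTTCCggatttccggtggtcg
A run of a C and at least 4 pyrimidines within 10 bases of the start, on the sense strand, was found in 37 of these 61 members (60.7%), against 34.4% of all 27025 genes in the table. *Rpl10a* and *Rpl22l1*, also lower in an inhibitor comparison, have a run of 7 and 8 bases at a listed start. *Rpl4*, *Rpl5*, *Rpl9*, *Rpl23*, *Rpl26*, *Rps3*, *Rplp0* and *Rpsa*, higher in all 4 inhibitor comparisons, have none. *Rpl6*, *Rpl12*, *Rpl13a*, *Rpl14*, *Rpl19*, *Rpl27a*, *Rpl31*, *Rpl34*, *Rps6*, *Rps7*, *Rps12*, *Rps15a*, *Rps23* and *Rps24*, also higher in all 4, have one. Whether a run goes with the direction of change was not tested. In the 300 bases around the start (250 before and 50 after), searched on both strands, CCGGAAG was present in 41.0% of members and 9.93% of all genes, TCGCGA in 21.3% and 2.86%, GGGCGG in 62.3% and 38.2%, and AAGATGG in 16.4% and 7.28%. TATAAA went the other way, with 11.5% of members and 15.7% of all genes. All genes here are the 27025 with a listed start, which include genes not tested in these cells. The gaps therefore need not be particular to the members. The reverse strand of CCGGAAG reads as a pyrimidine stretch in part and can overlap the run. A match describes these letters and not a bound site.

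The paralogs among the members are shown for how far their sequences differ. The first 30 coding bases are shown for the 3 most similar pairs, with the bases that differ within a pair in capitals.
Rpl36a: atggtGaacgtGccTaaaacccgCCggacA
Rpl36al: atggtCaacgtAccAaaaacccgAAggacT
Rpl39: atgTcttctcacaagacTttcCgAatcaag
Rpl39l: atgGcttctcacaagacCttcAgGatcaag
Rps27: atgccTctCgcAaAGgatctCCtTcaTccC
Rps27l: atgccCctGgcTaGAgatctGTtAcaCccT
Coding identity was 87.7% for *Rpl36a* and *Rpl36al*, 85.0% for *Rpl39* and *Rpl39l*, 76.2% for *Rps27* and *Rps27l*, 70.2% for *Rpl22* and *Rpl22l1*, and 62.6% for *Rpl7* and *Rpl7l1*. Pseudogenes were closer: 70 of 81 members had at least 1 other gene with a stretch of at least 100 bases at 98% identity or more, and for 47 such stretches covered at least 50% of the transcript. The 245 annotated pseudogenes among these copies held 1.56% as many counts as the members. Read pairs that fit both places equally were not kept by the authors' mapping quality filter, so levels of such members may be too low, by an amount that was not tested.

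Libraries held 17457796 to 19522255 counts, so that 3 counts are worth 0.154 to 0.172 CPM, counts scaled to a common library total. Gene levels below are CPM of the library total multiplied by its TMM factor (0.927 to 1.04), an edgeR scaling for the make-up of a library, and summed marker levels are CPM of the total itself. The macrophage markers *Adgre1*, *Cd68*, *Csf1r*, *Itgam*, *Mertk* and *Fcgr1* all passed the count filter in these cells, but their sum was lower with each inhibitor than with Veh. It was 8379 to 9057 CPM in Veh M[0], 3793 to 4113 in HC3 M[0] and 4300 to 4526 in RSM M[0], and all 6 were called lower with each inhibitor there. In M[IL-4] the sum was 6742 to 7249 CPM with Veh, 4890 to 4958 with HC3 (5 called lower and *Fcgr1* higher) and 5457 to 5902 with RSM (*Csf1r* lower and *Fcgr1* higher), and 5 were lower in Veh M[IL-4] than in Veh M[0]. Markers of B and T cells (0 of 6 passed), neutrophils and progenitors (1 of 6), dendritic cells (1 of 6) and mast or erythroid cells (1 of 6) summed to at most 3.01 CPM in any library. Stromal markers were present (5 of 6 passed, *Lum* did not), and their sum was 494.0 to 859 CPM in Veh M[0], 1214 to 1712 in HC3 M[0] and 1024 to 1484 in RSM M[0]. In M[IL-4] it was 258 to 636 CPM for Veh, 534 to 1041 for HC3 and 515 to 1051 for RSM. Not every stromal marker went up: *Col1a1* and *Col3a1* were called higher in all 4 inhibitor comparisons, but *Dcn* was lower with RSM in M[0] (-1.51 ± 0.25, FDR = 7.44e-05) and in M[IL-4] (-1.55 ± 0.26, FDR = 0.000109). The part of macrophage and stromal markers in the results below was not tested.

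Levels of the members spanned a wide range and kept their order across groups. On the scale of CPM per kilobase of the principal transcript, the median member stood at 302 in Veh M[0], and 70 of 81 were at 100 or more. Where several transcripts ranked best the longest was taken, so levels and their order between genes depend on that choice. The highest was *Rplp1* (1149 ± 96.4, SD, n = 3), a protein of the ribosomal stalk, followed by *Rpl10* (1129 ± 89.6), which completes the large subunit, *Rps12* (784 ± 53.5), *Rps27* (749 ± 144) and *Rplp0* (679.9 ± 26.5). *Rplp1* and *Rpl10* differed by less than their spread, as did *Rps12* and *Rps27*, and *Rps27* and *Rplp0*. The median was 259 for large and 344 for small subunit genes. Spearman's rho between a group's levels and those of Veh M[0] across the 81 genes was 0.960 to 0.990 for the other 5 groups, a description over genes of shared libraries.

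The lowest 4 members stayed under 10 CPM per kilobase in every group. These were *Rpl36al*, with 5 to 25 counts per library, *Rpl24* with 8 to 31, *Rpl39l* with 13 to 115 and *Rps10* with 30 to 78. *Rpl13a* came next, with 201 to 445 counts and 11.4 ± 0.207 CPM per kilobase in Veh M[0]. *Rpl24*, *Rps10* and *Rpl13a* are core ribosomal proteins with no expressed paralog among the members. In the annotation used here, 71.5% of the *Rpl24* transcript, 53.6% of *Rps10*, 59.3% of *Rpl13a* and 26.0% of *Rpl36al* lie in exons of another gene on the same strand (*Gm28037*, RPS10-NUDT3, *Gm45713* with *Mir5121* and *Snord33*, and *Gm49383*). The genes *Gm28037*, RPS10-NUDT3, *Gm45713* and *Gm49383* held 0 to 4 counts per library themselves. Read pairs on exons of several genes can be left uncounted, so the level of these members is uncertain. Whether that lowered it, and by how much, was not tested.

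**Figure D1:**
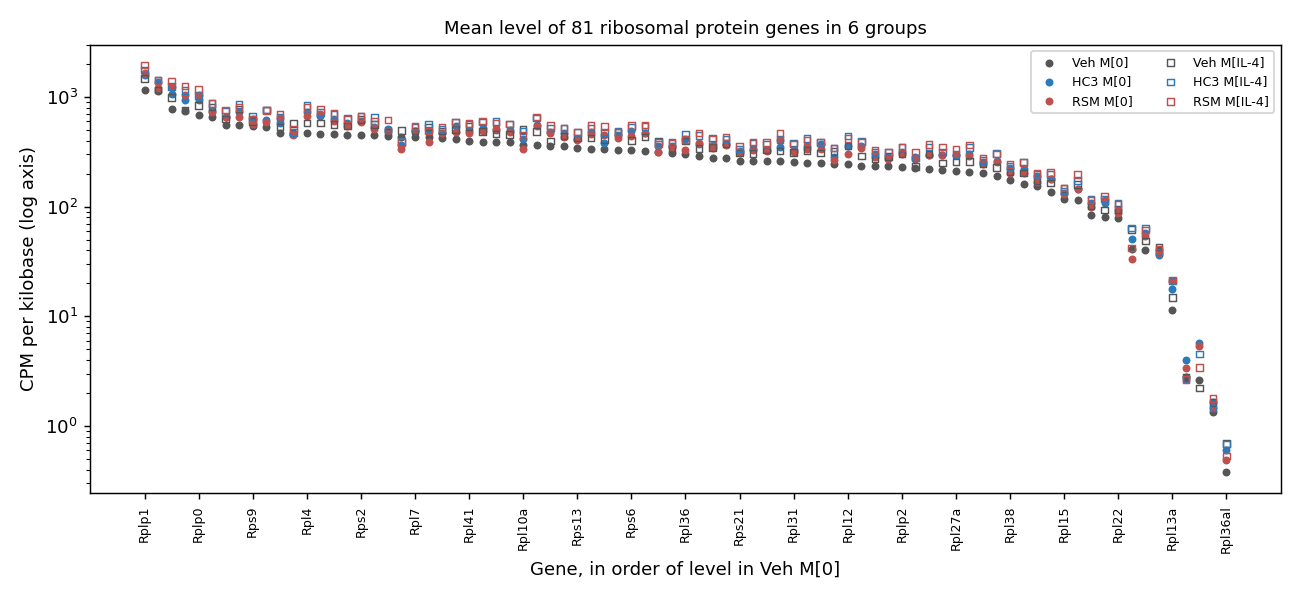
Mean level in CPM per kilobase (log axis) of the 81 genes in each of the 6 groups, ordered by the level in Veh M[0], with a subset of the genes named on the axis; filled circles are M[0] and open squares M[IL-4], with grey for Veh, blue for HC3 and red for RSM. The levels fall slowly from Rplp1 to about Rpl22 and then drop to Rpl36al, and Veh M[0] has the lowest mean for most genes.

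Members took a larger share of all counts after either inhibitor. The share was 2.24, 2.44 and 2.31% in the libraries of Veh M[0], 3.14, 3.04 and 3.18% in HC3 M[0], and 3.19, 2.93 and 3.05% in RSM M[0]. Both inhibitor groups lay above every vehicle library. With IL-4 the share was 2.86, 2.48 and 2.95% for Veh, 3.63, 3.21 and 3.29% for HC3, and 3.44, 3.42 and 3.44% for RSM, again without overlap between an inhibitor and vehicle, while Veh M[IL-4] lay above Veh M[0] in all 3 libraries. A share of counts is relative: in bulk RNA, more of these mRNAs per cell, less of the other RNA, and a different make-up of the cells cannot be told apart.

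Large and small subunit genes moved together, with a small shift in their ratio. Counts on large subunit genes were 1.50, 1.54 and 1.54 times those on small subunit genes in Veh M[0], and 1.44, 1.47 and 1.47 times in RSM M[0], which did not overlap. In HC3 M[0] the ratio was 1.51, 1.50 and 1.50, inside the vehicle range. In M[IL-4] it was 1.50, 1.52 and 1.49 for Veh, 1.50, 1.48 and 1.47 for HC3, and 1.45, 1.46 and 1.46 for RSM, so RSM libraries had the lowest ratios of each polarization. No test was made on these sums.

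**Figure D2:**
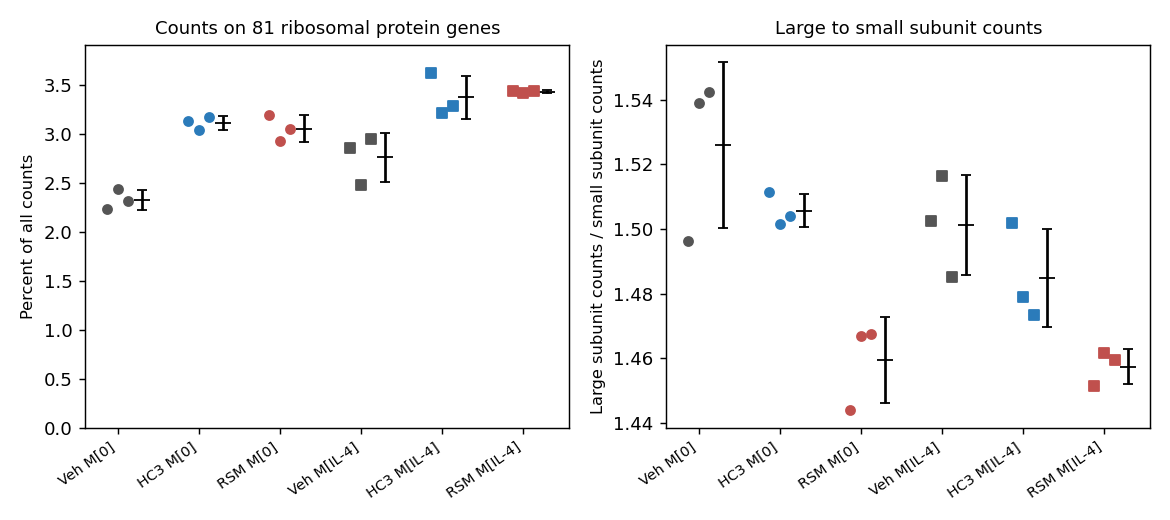
Percent of all counts on the 81 genes (left) and the ratio of large to small subunit counts (right; the axis starts above 0) for the 18 libraries; points are libraries, bars the mean ± SD of 3, with grey for Veh, blue for HC3 and red for RSM. Every HC3 and RSM library lies above the vehicle libraries of its polarization on the left, and RSM libraries have the lowest ratios of each polarization on the right.

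In naïve cells, most members rose with HC3. At an edgeR FDR under 0.05, 62 of 81 members (76.5%) were higher in HC3 M[0] than in Veh M[0] and 0 were lower, against 22.6% of all genes tested higher and 21.5% lower. At an unadjusted p under 0.05, 64 were higher and 2 lower, against 3923 and 3683 of all 14979 genes. DESeq2 called 61 and 0 (21.6% and 21.8% of all genes). With the replicate number within M[0] as a block, 73 were higher and 2 lower (28.0% and 25.5%). The median log2 fold change was 0.38 (1.30-fold), with a range from -0.25 to 1.11, against 0.02 for all genes. In 68 members all 3 HC3 libraries lay above all 3 vehicle libraries (26.6% of all genes), and in 1 they all lay below (25.6%). Counts by subunit were 39 of 50 large (median 0.37) and 23 of 31 small (median 0.41). Only *Rpl39l* passed the further limit of a log2 fold change of 1 or more, which 5.93% of all genes passed upwards. Without replicate number 3 the count of higher members was 34, and without replicate number 1 it was 44. Here and below, counts with a library or number left out or another scaling stand without the share of all genes, unless one is given. A change in them need not be particular to the members.

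Among the largest rises with HC3 in M[0] were *Rpl39l*, *Rpl4*, *Rpl13a* and *Rps3*. *Rpl4*, a protein that lines the exit tunnel for the growing chain, was at 702, 743 and 702 CPM in Veh M[0] and 1174, 1132 and 1093 CPM in HC3 M[0]. Its log2 fold change was 0.66 ± 0.05, FDR = 7.89e-09 (edgeR, here and below with the SE). Every HC3 library exceeded every vehicle library. *Rps3*, which sits at the mRNA entry of the small subunit and also takes part in DNA repair, went from 409.9, 471 and 462 CPM to 689.8, 657 and 683 CPM (0.60 ± 0.07, FDR = 1.24e-06). Groups did not overlap for this gene either. *Rpl39l* rests on few counts, 38, 13 and 65 with Veh against 115, 69 and 79 with HC3, and its log2 fold change of 1.11 ± 0.43, FDR = 0.0451 was not called without replicate number 1, without Veh M[0] replicate 1 or with the length and GC offsets.

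RSM in naïve cells gave a similar picture with fewer calls. Of 81 members 47 (58.0%) were higher than with Veh and 2 lower, against 20.5% and 20.7% of all genes. The median log2 fold change was 0.31 (1.24-fold), from -0.36 to 1.00, against 0.01 for all genes. By subunit 30 of 50 large (median 0.30) and 17 of 31 small genes (median 0.35) were higher. Groups did not overlap upwards in 55 members (25.8% of all genes) and downwards in 2 (25.7%). With the replicate block 62 were higher and 3 lower (25.7% and 25.2% of all genes), and without replicate number 3, 30 were higher and 0 lower.

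Among the largest rises with RSM in M[0] were *Rpl13a*, *Rps12*, *Rps24* and *Rplp0*. *Rpl13a*, which besides its place in the ribosome takes part in a translational silencing complex of interferon-treated monocytic cells, was at 12.2, 11.8 and 11.8 CPM with Veh and 23.3, 20.8 and 22.3 CPM with RSM. That is a log2 fold change of 0.89 ± 0.08, FDR = 8.62e-08, on the counts assigned to it. Whether counts were lost to its overlapping neighbours was not tested. *Rplp0*, the base of the stalk and a common reference gene for qPCR, rose from 907, 965 and 899 to 1459, 1406 and 1386 CPM (0.62 ± 0.05, FDR = 1.93e-08). *Rps12*, a small subunit protein, rose from 461, 487 and 425 to 757, 684 and 713 CPM (0.65 ± 0.06, FDR = 1.62e-07). In all of these the RSM libraries lay above the vehicle libraries. *Rps24*, mutated in some patients with Diamond-Blackfan anaemia, was at 450.0, 442 and 359.8 CPM with Veh and 739, 628 and 597 CPM with RSM (0.65 ± 0.11, FDR = 0.000128).

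Only *Rpl37a* and *Rpl22l1* fell with RSM in M[0] at this threshold. *Rpl37a*, a zinc finger protein of the large subunit, was at 213, 276 and 236 CPM with Veh and 194, 187 and 185 CPM with RSM, a log2 fold change of -0.36 ± 0.12, FDR = 0.023. RSM libraries were close to each other and below all vehicle libraries, which varied more. Both calls were lost without replicate number 2, without replicate number 3 and with scaling by library size only. With HC3 in M[0], *Rpl37a* was at 197, 204 and 207 CPM and did not pass (-0.25 ± 0.12, FDR = 0.0956).

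**Figure D3:**
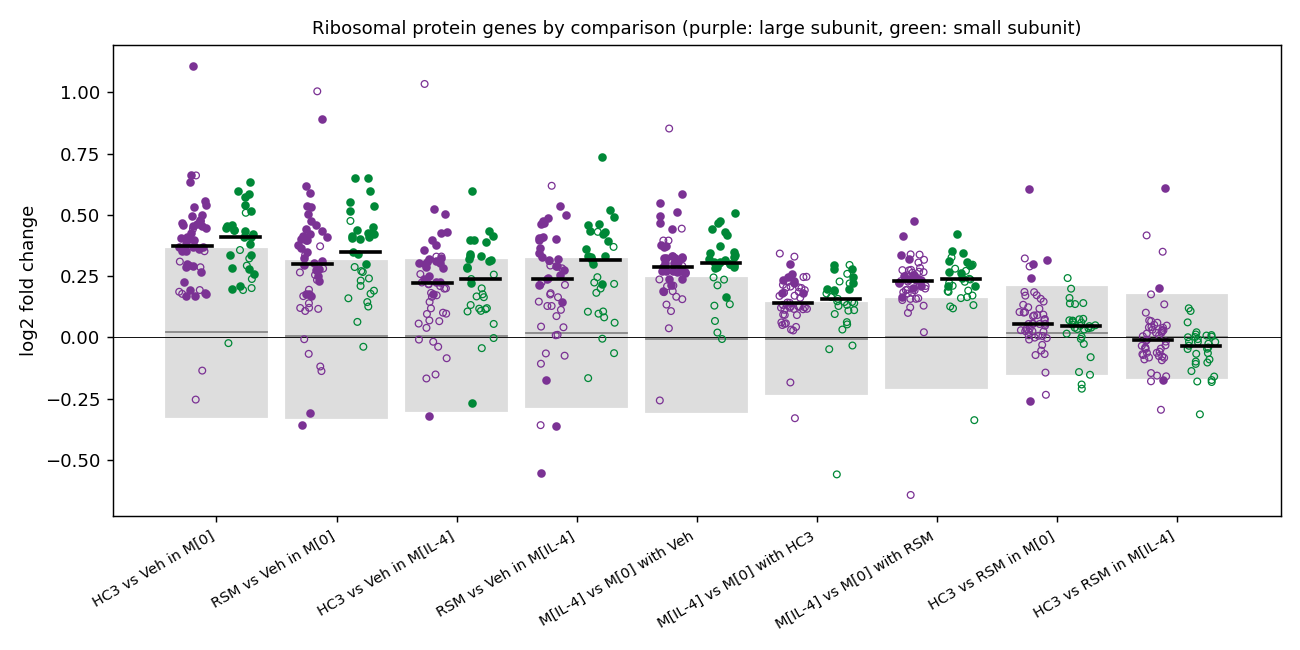
Log2 fold change of each member in 9 comparisons, with large subunit genes in purple and small subunit genes in green; filled points passed an edgeR FDR under 0.05, black lines are medians, and the grey box is the range from the first to the third quartile of all 14979 genes with their median as a grey line. Medians of both subunits lie above 0 in the first 7 comparisons and near 0 for HC3 vs RSM.

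In cells polarized with IL-4 fewer members were called and the medians were lower, a difference whose test follows below. With HC3, 36 of 81 members (44.4%) were higher and 2 lower, against 18.9% and 19.9% of all genes, with a median log2 fold change of 0.22 (1.17-fold) and of 0.01 for all genes. With RSM, 39 members (48.1%) were higher and 3 lower, against 20.1% and 18.5%, with a median of 0.26 (1.19-fold) and of 0.02 for all genes. By subunit, HC3 raised 21 of 50 large and 15 of 31 small genes, and RSM 23 of 50 and 16 of 31. Groups did not overlap upwards in 38 members for HC3 (22.2% of all genes) and in 45 for RSM (23.7%), and downwards in 1 (23.7%) and 3 (22.9%). The HC3 and RSM comparisons of a polarization share their vehicle libraries, and 32 members passed as higher in all 4 inhibitor comparisons, 19 large and 13 small. Among them were *Rpl4*, *Rpl5*, *Rpl12*, *Rplp0*, *Rps3*, *Rps6* and *Rpsa*. Of all genes 9.59% were higher in all 4. Another 17 members were higher in none of the 4 (65.8% of all genes). With the replicate block within each polarization, HC3 in M[IL-4] had 53 members higher and 3 lower (24.6% and 24.4% of all genes) and RSM 55 and 3 (26.3% and 23.0%), 47 members were higher in all 4 (13.5%), and 6 in none (58.6%). Leaving out a replicate number gave 23 to 26 members in all 4 (4.92 to 8.45% of all genes). It gave 10 to 41 in none (68.9 to 79.1%), the 41 without number 3.

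*Rps27*, a zinc finger protein of the small subunit, had the largest rise among called members with either inhibitor in M[IL-4]. It stood at 227, 260.1 and 299 CPM with Veh, 342, 478 and 369 CPM with HC3 and 315, 559.7 and 434 CPM with RSM. The log2 fold change was 0.60 ± 0.19, FDR = 0.0174, with HC3 and 0.74 ± 0.19, FDR = 0.00448, with RSM. Both inhibitor groups lay above vehicle but varied widely, replicate 2 being the highest in each, and neither call held without replicate number 2. *Rpl4* was more even, at 878, 911 and 898 CPM with Veh against 1295, 1316 and 1247 CPM with HC3 (0.52 ± 0.05, FDR = 2.54e-07). *Rpl30*, a large subunit protein that in yeast regulates its own splicing, was at 237, 196 and 254 CPM with Veh, 320.4, 302 and 303 CPM with HC3 (0.43 ± 0.09, FDR = 0.000765) and 303, 332 and 336 CPM with RSM (0.50 ± 0.09, FDR = 0.000177). No library of either inhibitor group overlapped with vehicle for *Rpl4* or *Rpl30*.

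Falls in M[IL-4] were few. *Rpl37a* was lower with both inhibitors, at 290.5, 218 and 318 CPM with Veh, 261, 202 and 198 CPM with HC3 and 206, 225 and 211 CPM with RSM. Its log2 fold change was -0.32 ± 0.12, FDR = 0.0403, for HC3 and -0.36 ± 0.12, FDR = 0.0219, for RSM, but the ranges overlapped, with vehicle replicate 2 inside the range of the inhibitor libraries. *Rps15*, a small subunit protein near the decoding site, was lower with HC3 (311, 239 and 311 CPM with Veh and 269, 217 and 228 CPM with HC3, -0.27 ± 0.10, FDR = 0.0401), with overlapping ranges too. The *Rps15* call and both *Rpl37a* calls were lost with scaling by library size only and without replicate number 3, and the *Rpl37a* call with RSM also without number 1. *Rpl10a* was lower with RSM (365, 354 and 382 CPM against 339, 315 and 323 CPM, -0.17 ± 0.07, FDR = 0.0487), a call just past the threshold and lost under 5 of the 15 alternatives.

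Polarization by itself raised the members in vehicle-treated cells. Between Veh M[IL-4] and Veh M[0], 55 of 81 members (67.9%) were higher and 0 lower, against 16.1% and 14.9% of all genes. At an unadjusted p under 0.05 the counts were 61 and 0, against 3098 and 3030 of all 14979 genes. DESeq2 called 56 and 0, against 16.6% and 14.5% of all genes. All libraries of Veh M[IL-4] lay above all of Veh M[0] in 50 members (21.1% of all genes) and below in 0 (19.7%). The median log2 fold change was 0.30 (1.23-fold), and -0.01 for all genes. By subunit 32 of 50 large (median 0.29) and 23 of 31 small genes (median 0.30) were higher. The count varied widely with the libraries used: without replicate number 3 it was 13, without number 1 it was 37, and without number 2 it was 67. Leaving out only Veh M[IL-4] replicate 2, which had the lowest share of counts on members in its group, gave 64, leaving out only Veh M[0] replicate 1 gave 40, and scaling by library size only gave 42.

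*Rpl22l1*, *Rpl12*, *Rpl8*, *Rps18* and *Rpl13* rose most with IL-4. *Rpl12*, part of the stalk base where elongation factors dock, was at 295, 321 and 292 CPM in Veh M[0] and 443, 424 and 461 CPM in Veh M[IL-4] (0.55 ± 0.07, FDR = 4.72e-06). *Rps18*, at the contact between the subunits, went from 273, 326 and 300.1 to 442, 369.8 and 467 CPM (0.51 ± 0.08, FDR = 9.81e-05). Groups did not overlap for either. *Rpl8* was at 277, 367 and 372 CPM and then 521, 422 and 503 CPM (0.51 ± 0.13, FDR = 0.00574), and *Rpl13* at 359.9, 449 and 479 CPM and then 666, 507 and 641 CPM (0.49 ± 0.13, FDR = 0.00536), both also without overlap but with wider spread, and neither call held without replicate number 1 or 3.

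After an inhibitor, fewer members passed for IL-4. In HC3-treated cells 16 of 81 were higher with IL-4 (19.8%, against 7.22% of all genes) and 0 lower (7.48%), with a median log2 fold change of 0.15. In RSM-treated cells 25 were higher (30.9%, against 8.79%) and 0 lower (6.74%), with a median of 0.23. These counts varied widely too: without replicate number 3 they were 0 and 3, without number 1 they were 5 and 31, without number 2 they were 12 and 12, and with scaling by library size only 5 and 12. With the replicate number as a block within each polarization they were 42 and 62 higher (12.6% and 13.9% of all genes) and 1 lower in each (14.5% and 13.1%), but that block is nested in the groups compared here and leaves the spread between cultures out of the error. Across the 3 IL-4 comparisons, *Rpl12* had a log2 fold change of 0.55 with Veh, 0.30 with HC3 and 0.47 with RSM, and passed in each (FDR = 4.72e-06, 0.00471 and 4.26e-05), the call with HC3 being lost without replicate number 1 or 3.

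Whether the inhibitor effect differed between M[IL-4] and M[0] was tested with the interaction. By edgeR, 0 of 81 members passed in either direction for HC3 or for RSM. Of all genes, 3.4% (HC3) and 4.14% (RSM) passed with a lower log2 fold change in M[IL-4] than in M[0], and 3.08% and 5.05% with a higher one. At an unadjusted p under 0.05, 13 members were lower and 0 higher for HC3, against 1504 and 1428 of all 14979 genes. For RSM 4 members were lower and 1 higher, against 1521 and 1715 of all genes. DESeq2 called 4 (HC3) and 3 (RSM) as lower, against 5.54% and 6.91% of all genes. edgeR with the replicate block within each polarization called 11 and 5 as lower, against 8.93% and 8.94%, and 0 as higher, against 8.38% and 10.5%. The median interaction was -0.14 for HC3 and -0.06 for RSM on the log2 scale, against -0.01 and 0.01 for all genes. *Rps2*, a small subunit protein, was at -0.34 ± 0.11, FDR = 0.0909, for HC3 and -0.32 ± 0.11, FDR = 0.0984, for RSM, and at FDR = 0.000387 and FDR = 0.000568 with the block. *Rps2* was chosen for mention after its values were seen.

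The 2 inhibitors were compared directly at the single dose used of each, 250 µM and 5 µM. Few members differed: in M[0], 4 were higher with HC3 (6.18% of all genes) and 1 lower (7.43%), and in M[IL-4], 2 were higher (4.97%) and 1 lower (8.03%). With the replicate block, M[0] had 9 higher (13.7% of all genes) and 5 lower (12.9%), and M[IL-4] had 2 higher (10.6%) and 5 lower (13.5%). The median log2 difference was 0.05 in M[0] and -0.02 in M[IL-4], against 0.02 and 0.003 for all genes. *Rpl3*, which builds part of the peptidyl transferase centre, was higher with HC3 in both. In M[0] it was at 570.3, 605 and 565 CPM with Veh, 694, 652 and 622 CPM with HC3 and 561, 495 and 526 CPM with RSM (HC3 vs RSM 0.31 ± 0.06, FDR = 0.00125). In M[IL-4] it was at 685, 725 and 740.2 CPM with Veh, 776, 765 and 757 CPM with HC3 and 642, 657 and 697 CPM with RSM (0.20 ± 0.06, FDR = 0.029), a call lost when any replicate number was left out. Against vehicle, only the rise with HC3 in M[0] passed for *Rpl3* (0.18 ± 0.06, FDR = 0.0224), a call lost without replicate number 1 or 3 and without Veh M[0] replicate 1, and with RSM the differences were -0.14 ± 0.06, FDR = 0.074, in M[0] and -0.11 ± 0.06, FDR = 0.17, in M[IL-4].

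In M[0], *Rpl10a* (306, 301 and 298 CPM with HC3 and 257, 231 and 246 CPM with RSM, 0.30 ± 0.07, FDR = 0.00488) and *Rpl12* (436, 443 and 455 and 398, 345 and 384 CPM, 0.24 ± 0.07, FDR = 0.0205) were also higher with HC3. *Rpl13a* was the only member lower with HC3 there, at 19.5, 16.9 and 19.0 CPM against 23.3, 20.8 and 22.3 CPM (-0.26 ± 0.08, FDR = 0.0409), a call lost when any replicate number was left out. *Rplp0* was lower with HC3 in M[IL-4], at 1484, 1374 and 1358 CPM against 1589, 1605 and 1565 CPM (-0.17 ± 0.05, FDR = 0.0321). The *Rpl10a* call was lost without replicate number 3, and those of *Rpl12* and *Rplp0* without number 2 or 3. For these 4 genes the libraries of the 2 inhibitors did not overlap.

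The stalk of the large subunit, which recruits elongation factors, is formed by *Rplp0*, *Rplp1* and *Rplp2*. All 3 were higher with each inhibitor in M[0]. *Rplp1* was at 519.6, 612 and 588 CPM with Veh, 733, 765 and 876 CPM with HC3 (0.46 ± 0.10, FDR = 0.00111) and 817, 790.1 and 889 CPM with RSM (0.54 ± 0.10, FDR = 0.000316). *Rplp2* was at 173, 243 and 247 CPM with Veh, 281, 286 and 342 CPM with HC3 (0.45 ± 0.15, FDR = 0.0187) and 288, 279 and 308 CPM with RSM (0.40 ± 0.15, FDR = 0.0381), with no overlap between groups. The *Rplp1* call with HC3 was lost without replicate number 3. The *Rplp2* calls were lost without replicate number 1 or 3 and without Veh M[0] replicate 1, the library with the lowest value. In M[IL-4], *Rplp0* was higher with HC3 (0.30 ± 0.05, FDR = 0.000154) and with RSM (0.47 ± 0.05, FDR = 6.64e-07), *Rplp1* was higher with RSM (0.40 ± 0.10, FDR = 0.00384), and *Rplp2* gave 0.20 and 0.21 without passing (FDR = 0.31 and 0.28, or 0.0414 and 0.0214 with the replicate block). HC3 on *Rplp1* in M[IL-4] gave 0.26 ± 0.10, FDR = 0.053 (FDR = 0.000404 with the replicate block).

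*Rpl5*, *Rpl11* and *Rpl23* bind Mdm2, the ubiquitin ligase of p53, when ribosome assembly is disturbed. Differences between these genes were not tested. *Rpl5* was at 389, 402 and 371 CPM in Veh M[0], 556, 543 and 503 CPM with HC3 (0.46 ± 0.06, FDR = 3.14e-06) and 544, 519 and 508 CPM with RSM (0.43 ± 0.06, FDR = 7.19e-06). *Rpl23* was at 340.1, 423 and 371 CPM, 507, 501 and 513 CPM (0.42 ± 0.09, FDR = 0.000481) and 509, 488 and 501 CPM (0.40 ± 0.09, FDR = 0.000862) in the same order. For both, inhibitor and vehicle libraries were separate, and both were also higher with each inhibitor in M[IL-4] (log2 fold changes 0.43 and 0.40 for *Rpl5*, 0.40 and 0.47 for *Rpl23*). *Rpl11* passed in none of the 4 inhibitor comparisons, with log2 values of 0.18 (FDR = 0.15; FDR = 0.0344 with the replicate block), -0.01, -0.02 and -0.07. It was at 227, 288 and 276 CPM in Veh M[0] and 345, 283 and 353 CPM in Veh M[IL-4], a rise with IL-4 (0.31 ± 0.10, FDR = 0.019) that was lost without replicate number 1 or 3, without Veh M[0] replicate 1 and with scaling by library size only.

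*Rps6*, the substrate of the S6 kinases downstream of mTORC1, rose in every inhibitor comparison. It stood at 288, 295 and 282 CPM in Veh M[0], 461, 422 and 402 CPM in HC3 M[0] (0.57 ± 0.07, FDR = 1.75e-06) and 423, 376 and 371 CPM in RSM M[0] (0.44 ± 0.07, FDR = 4.39e-05). In M[IL-4] it was at 359, 323 and 374 CPM with Veh, 474, 487 and 443 CPM with HC3 (0.41 ± 0.07, FDR = 9e-05) and 481, 499 and 471 CPM with RSM (0.46 ± 0.07, FDR = 2.66e-05). *Rpsa*, also known as the laminin receptor, went from 655, 640.2 and 593 CPM in Veh M[0] to 941, 894 and 907 CPM with HC3 (0.54 ± 0.06, FDR = 2.16e-07) and 958, 860.0 and 920.2 CPM with RSM (0.54 ± 0.06, FDR = 2.47e-07). For *Rps6* and *Rpsa* no inhibitor library overlapped with vehicle of the same polarization. *Rps27a*, translated as a fusion with ubiquitin, rose with HC3 in M[0] (327, 383 and 353 CPM to 401, 419 and 449.6 CPM, 0.26 ± 0.08, FDR = 0.0134), a call lost without replicate number 1 or 3 and without Veh M[0] replicate 1. In the other 3 inhibitor comparisons it did not pass (log2 0.19, 0.20 and 0.08), although the first of these, RSM in M[0], had FDR = 0.00302 with the replicate block, and the second, HC3 in M[IL-4], FDR = 0.00172 with the replicate block.

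The 4 X-linked members are *Rpl10*, *Rpl36a*, *Rpl39* and *Rps4x*. *Rpl10* was at 907, 1052 and 938 CPM in Veh M[0], 1165, 1223 and 1158 CPM with HC3 (0.29 ± 0.06, FDR = 0.000755) and 1051, 1034 and 1036 CPM with RSM (0.11 ± 0.06, FDR = 0.18). With IL-4 in vehicle-treated cells it did not pass (0.04 ± 0.06, FDR = 0.69). *Rps4x*, the second of these by CPM per kilobase, was at 689, 652 and 576 CPM in Veh M[0] and did not pass in any inhibitor comparison (log2 0.19, 0.14, 0.11 and 0.11), but did with the replicate block in all 4 (FDR = 0.000259, 0.00487, 0.0216 and 0.0327). *Rpl36a* rose in M[0] with HC3 (0.41 ± 0.15, FDR = 0.0311) and RSM (0.40 ± 0.15, FDR = 0.0359) but not past the threshold in M[IL-4] (0.21 and 0.29). The HC3 call was lost without replicate number 2 or 3 and the RSM call without number 1 or 3.

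Among the paralog pairs, *Rpl22l1* differed between the inhibitors. Both proteins bind RNA outside the ribosome as well, and in other cells *Rpl22* restrains *Rpl22l1* expression. *Rpl22l1* was at 20.6, 25.3 and 22.2 CPM in Veh M[0], 25.1, 29.5 and 28.9 CPM with HC3 and 19.4, 15.0 and 20.6 CPM with RSM. In M[IL-4] it was at 29.8, 38.7 and 33.5 CPM with Veh, 35.9, 36.3 and 33.8 CPM with HC3 and 22.1, 22.6 and 24.9 CPM with RSM. All RSM libraries lay below all HC3 libraries of their polarization, and in M[IL-4] also below all vehicle libraries. HC3 and RSM differed in M[0] (0.61 ± 0.12, FDR = 0.00166) and in M[IL-4] (0.61 ± 0.12, FDR = 0.0014). Against vehicle it fell in RSM-treated M[IL-4] cells (-0.55 ± 0.12, FDR = 0.000875) and, just past the threshold, in M[0] (-0.31 ± 0.12, FDR = 0.0476), and rose with HC3 in M[0] (0.30 ± 0.12, FDR = 0.0482), both with overlapping ranges. The M[0] calls against vehicle were lost in several alternatives, RSM without replicate number 2 or 3 and HC3 without number 1 or 3 or without Veh M[0] replicate 1. IL-4 raised it in vehicle-treated cells (0.58 ± 0.12, FDR = 0.000844).

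*Rpl22* itself rose with both inhibitors in M[0], from 157, 169 and 154 CPM to 198, 189 and 191 CPM with HC3 (0.27 ± 0.06, FDR = 0.0011) and 192, 172 and 179.9 CPM with RSM (0.18 ± 0.06, FDR = 0.0211). The HC3 call was lost without replicate number 3, and the RSM call without number 1 or 3, without Veh M[0] replicate 1, with no count filter and with only the groups compared in the fit. Set against *Rpl22*, *Rpl22l1* had a ratio of counts of 13.1, 15.0 and 14.4% in Veh M[0], 12.7, 15.6 and 15.1% in HC3 M[0], and 10.1, 8.71 and 11.5% in RSM M[0]. In M[IL-4] the ratio was 15.7, 21.2 and 16.2% for Veh, 16.2, 17.0 and 15.4% for HC3, and 10.5, 10.3 and 11.8% for RSM. RSM was lowest in both polarizations, without overlap with Veh or HC3. Stretches near-identical to other genes covered 77.7% of the *Rpl22l1* transcript and none of *Rpl22*, so the ratio may understate *Rpl22l1*.

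**Figure D4:**
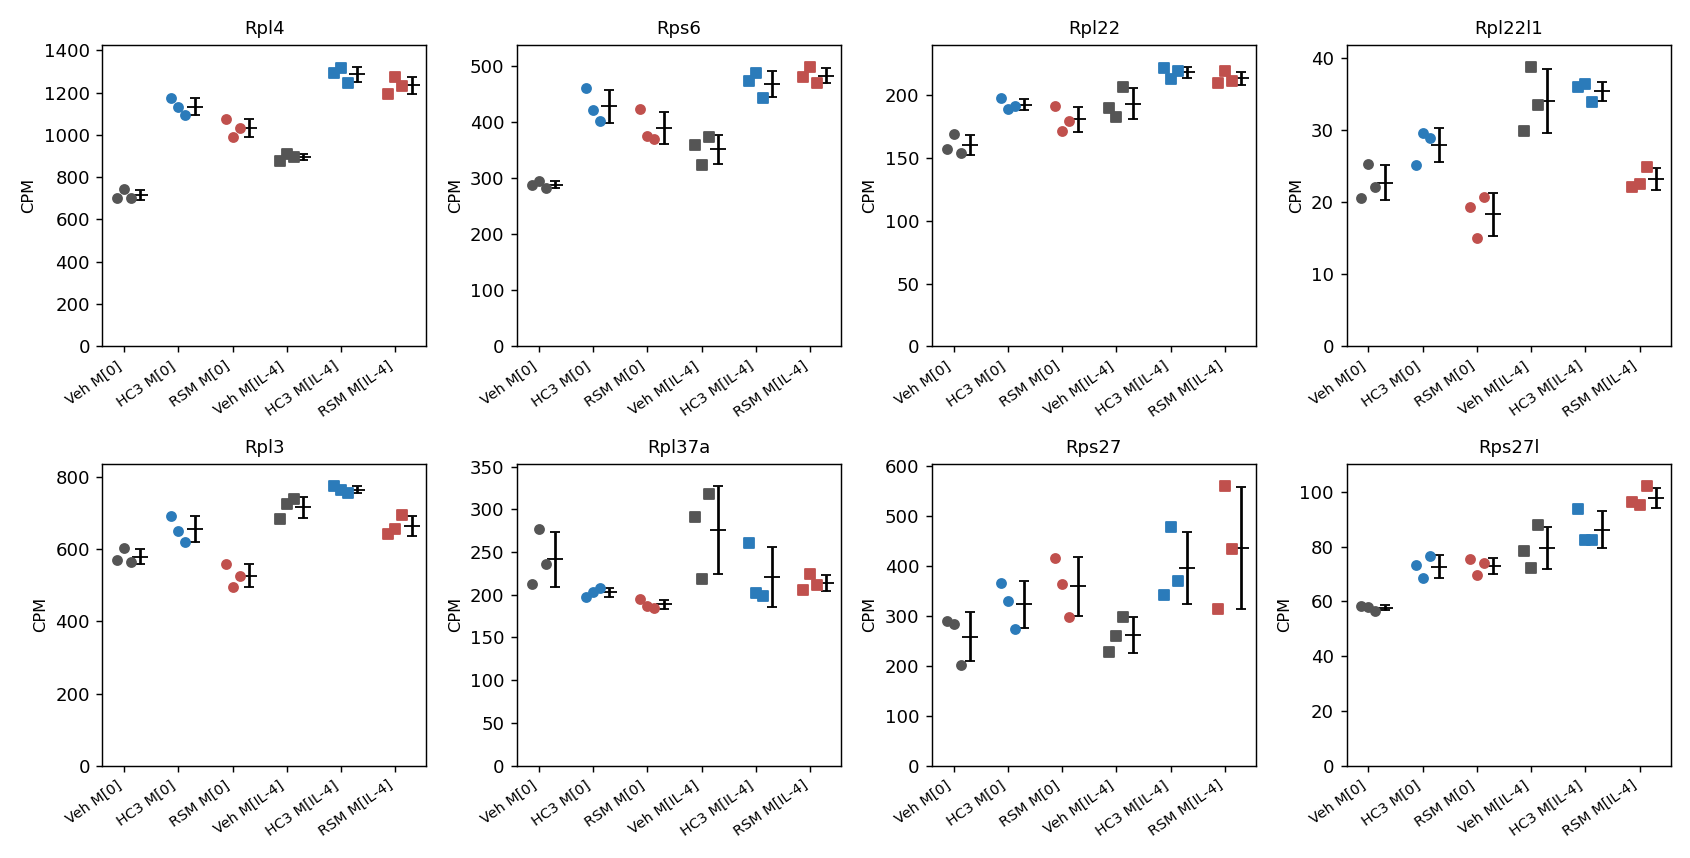
CPM per library of 8 members, with grey for Veh, blue for HC3 and red for RSM, circles for M[0] and squares for M[IL-4]; bars are the mean ± SD of 3 libraries. Rpl4 and Rps6 are higher with both inhibitors in each polarization, Rpl22l1 and Rpl3 are lower with RSM than with HC3, Rpl37a is lower with RSM than with Veh in M[0], and Rps27 varies widely between replicates.

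*Rps27* and *Rps27l*, whose proteins replace each other in the small subunit, were both measured well above the filter, and their difference in response was not tested. *Rps27l*, a p53 target, had little spread: 58.4, 57.9 and 56.6 CPM in Veh M[0], 73.1, 68.4 and 76.6 CPM with HC3 (0.34 ± 0.07, FDR = 0.00101) and 75.3, 69.8 and 74.0 CPM with RSM (0.34 ± 0.07, FDR = 0.000923). *Rps27* was at 290.1, 284 and 201 CPM with Veh, 366, 329 and 274 CPM with HC3 and 416, 364 and 298 CPM with RSM and did not pass without the block (log2 0.32 ± 0.19, FDR = 0.18, and 0.47 ± 0.19, FDR = 0.0526), but did with it (FDR = 0.00137 and 2.26e-05). IL-4 raised *Rps27l* with Veh (0.47 ± 0.07, FDR = 7.32e-05) and left *Rps27* at 0.02 ± 0.19, FDR = 0.96. *Rps27l* counts were 20.1 to 28.1% of those of *Rps27* in Veh M[0] and 27.8 to 34.5% in Veh M[IL-4]. With RSM in M[IL-4] the ratio ranged from 17.0 to 30.6%. Stretches near-identical to other genes covered 98.8% of *Rps27* and none of *Rps27l*.

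*Rpl7l1*, whose protein takes part in large subunit assembly, was not called in any inhibitor comparison. *Rpl7* rose with HC3 (0.17 ± 0.06, FDR = 0.0204) and RSM (0.18 ± 0.06, FDR = 0.0159) in M[0] and in RSM-treated M[IL-4] cells (0.14 ± 0.06, FDR = 0.0468). The call for HC3 and that in M[IL-4] were lost when any replicate number was left out, with no count filter and with only the groups compared, and the call for RSM in M[0] without number 3 and with no filter. *Rpl7l1* was at 105, 105 and 101 CPM in Veh M[0] and 102, 97.6 and 84.4 CPM in HC3 M[0] and gave negative, uncalled values (-0.14 ± 0.06, FDR = 0.0859, with HC3 and -0.07 ± 0.06, FDR = 0.42, with RSM). With the block the 2 HC3 differences passed (FDR = 0.0187 in M[0] and 0.0115 in M[IL-4]). Relative to the *Rpl7* counts, its counts were 20.1 to 21.3% in Veh M[0], 15.5 to 17.6% in HC3 M[0] and 16.9 to 18.2% in RSM M[0], with no overlap between vehicle and inhibitors. Veh M[IL-4] libraries were at 18.5 to 21.5%, again above HC3 (16.1 to 16.7%) and RSM (16.1 to 17.5%).

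The remaining pairs had a minor partner at trace levels. *Rpl39l*, best known from the testis, had a count that was 0.353 to 2.10% of that of *Rpl39* in Veh M[0] and 1.55 to 2.37% in HC3 M[0], with overlap. *Rpl39* was at 229.9, 216 and 166 CPM in Veh M[0] and 332, 268 and 220.3 CPM with RSM, where it just passed (0.42 ± 0.17, FDR = 0.0494), a call lost when any replicate number was left out. *Rpl36al* counts were 0.176 to 0.721% of those of *Rpl36a* over all 18 libraries, and no comparison of it passed. *Rpl3l* and *Rpl10l* were not detectable above the count filter, so 3 counts or fewer per library are the limit for them. *Rps4l*, the annotated pseudogene, held 70 to 210 counts per library.

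Members also varied between replicates in a shared way. Among the 77 members with a mean of at least 10 CPM, 1 component held 58.6% of the variance of log2 CPM around the group means. Its weights were positive for 60 members and negative for 17, and their Spearman's rho with GC content was 0.46 across genes, a description. *Rpl38*, *Rpl36*, *Rpl41* and *Rps28* had the highest weights and *Rps27*, *Rpl39* and *Rps4x* the lowest. Veh M[IL-4] replicate 2 and Veh M[0] replicate 1 lay farthest to the low side.

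*Rpl38*, which in mouse embryos favours translation of Hox mRNAs, was chosen for mention after its values were seen. It stood at 62.3, 101 and 79.6 CPM in Veh M[0] and 115, 57.1 and 113 CPM in Veh M[IL-4]. With HC3 in M[IL-4] it was at 136, 92.0 and 92.5 CPM. The low library is replicate 1 in Veh M[0] and replicate 2 in Veh M[IL-4]. Of the 17 members higher in none of the inhibitor comparisons, *Rpl24*, *Rps10* and *Rpl36al* had a mean under 10 CPM and no SD was taken. The others had a median SD around the group means of 0.20 log2 units, against 0.08 for the 32 called higher in all 4. The transcripts of all 17 were also shorter, with a median of 677 bases against 1028. These are lengths of the longest among the best-ranked transcripts, such as 5179 bases for *Rps15a* among the 32, so they depend on that choice. A member with wide replicate spread is harder to call, so absence from the 32 does not show that a gene stayed level. Without Veh M[0] replicate 1, 45 members were higher and 1 lower with HC3 in M[0] and 41 higher with RSM, and without Veh M[IL-4] replicate 2, 31 and 37 were higher in M[IL-4].

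Genes that build or serve the ribosome were counted from lists written from general knowledge, with the same test. Of all genes, 22.6% were higher and 21.5% lower with HC3 in M[0], 20.5% and 20.7% with RSM in M[0], 18.9% and 19.9% with HC3 in M[IL-4], and 20.1% and 18.5% with RSM in M[IL-4]. Among ribosomal protein genes outside the symbol pattern, *Rack1* (a scaffold on the small subunit) rose in all 4 inhibitor comparisons, for example with HC3 in M[0] (0.40 ± 0.05, FDR = 1.22e-06), *Rps3a1* in 3, such as RSM in M[0] (0.26 ± 0.06, FDR = 0.00259), and *Fau* in none. Translation factors and other TOP mRNAs were higher in 13 of 22 with HC3 and 11 of 22 with RSM in M[0] (0 and 2 lower), and in 8 and 8 of 22 in M[IL-4] (1 and 4 lower). *Eif3c*, a subunit of initiation factor 3, rose by 0.98 ± 0.05, FDR = 7.9e-12, with HC3 and 0.96 ± 0.05, FDR = 1.23e-11, with RSM in M[0]. *Eif3k* of the same complex was lower with HC3 in M[IL-4] (-0.37 ± 0.07, FDR = 0.000382).

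Ribosome biogenesis factors rose in M[0], 40 of 48 with HC3 (median log2 fold change 0.56) and 36 of 48 with RSM (0.44), with 0 and 1 lower. In M[IL-4] the counts were 25 higher and 2 lower with HC3 (0.28) and 14 higher and 4 lower with RSM (0.12). IL-4 raised 37 of 48 with Veh (16.1% of all genes). *Gnl3* (nucleostemin, a nucleolar GTPase) rose by 1.11 ± 0.08, FDR = 4.08e-09, with HC3 and 0.94 ± 0.08, FDR = 4.28e-08, with RSM in M[0]. *Pes1*, a large subunit assembly factor, was lower with RSM in M[IL-4] (-0.31 ± 0.05, FDR = 9.26e-05). Of 9 tested snoRNA host RNAs, which are themselves largely TOP transcripts, 9 were higher with each inhibitor in M[0] and 7 in M[IL-4]. *Gas5*, which ends in nonsense-mediated decay when translated, rose by 0.79 ± 0.07, FDR = 4.05e-08, with HC3 and 0.78 ± 0.07, FDR = 5.71e-08, with RSM in M[0].

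RNA polymerase I and III genes gave 9 higher and 2 lower of 27 with HC3 and 7 and 2 with RSM in M[0], and 9 and 2 with HC3 and 6 and 3 with RSM in M[IL-4]. Mitochondrial ribosomal proteins, which translate the organelle's own mRNAs, gave 25 higher and 4 lower of 77 with HC3 in M[0], 20 and 4 with RSM, and in M[IL-4] 13 and 10 with HC3 and 11 and 7 with RSM. Their medians in M[IL-4] (0.02 and 0.03) were near that of all genes (0.01 and 0.02). Among 22 genes of mTORC1 and of TOP mRNA control, 8 were higher and 5 lower with HC3 in M[0], 9 and 5 with RSM, 4 and 4 with HC3 in M[IL-4], and 5 and 4 with RSM. *Sesn2*, an inhibitor of mTORC1 induced under amino acid stress, rose by 2.13 ± 0.11, FDR = 2e-11, with HC3 and 2.22 ± 0.11, FDR = 1.5e-11, with RSM in M[0], while the p53 target *Sesn1* was lower (-2.58 ± 0.12, FDR = 3.65e-12, and -2.24 ± 0.12, FDR = 2.14e-11). *Eif4ebp2*, a translational repressor that mTORC1 phosphorylates, was lower in all 4 inhibitor comparisons, for example with HC3 in M[0] (-0.78 ± 0.06, FDR = 2.18e-09). The related *Eif4ebp1* went the other way and was higher in all 4, for example with HC3 in M[0] (0.95 ± 0.15, FDR = 4.31e-05). *Larp1* was also higher in all 4, for example with HC3 in M[0] (0.52 ± 0.06, FDR = 3.1e-07).

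**Figure D5:**
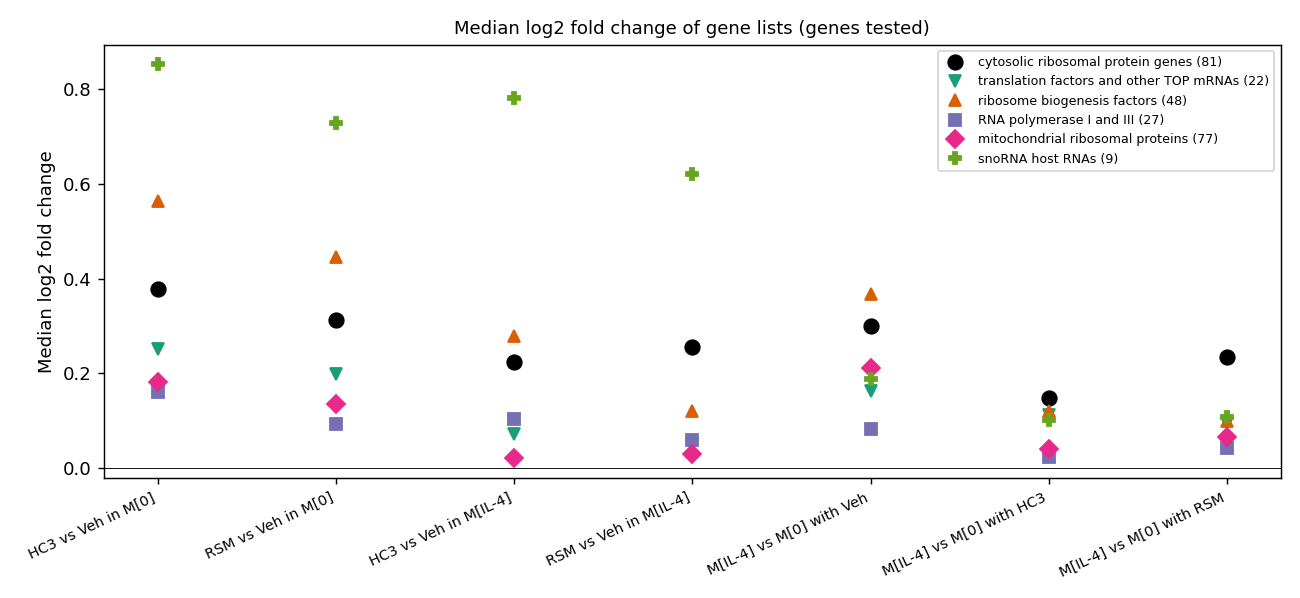
Median log2 fold change of the 81 cytosolic ribosomal protein genes (black circles) and of 5 other lists in 7 comparisons, with the number of genes tested in parentheses. Ribosomal protein genes lie at 0.15 to 0.38 in all 7, and with the inhibitors snoRNA host RNAs lie higher and mitochondrial ribosomal proteins lower than these genes.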

How the data were processed

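Bone marrow-derived macrophage mRNA was sequenced in 6 groups of 3 libraries. The deposited values are raw counts per gene: for these the authors used fastp for trimming, STAR in local mode with GRCm38, a mapping quality of 40 as the condition for a pair, Picard to mark (not remove) duplicates, and featureCounts of Subread over exons. Tool versions, the annotation release and the strand setting are not given in the sources used here, so reads of a gene and an antisense partner cannot be told apart.

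A gene was tested if 2 or more of the 18 libraries held 10 or more counts of it (14979 genes, and 55144 of 55385 rows had a symbol). edgeR 4.0.16 (R 4.3.3) fitted its quasi-likelihood model with TMM factors to all 18 libraries, 1 coefficient per group, and FDR values are Benjamini-Hochberg over all tested genes in each of 11 comparisons. DESeq2 1.42.0 and the other alternatives are described at the end. Levels of genes are CPM of the library total multiplied by its TMM factor, per kilobase where genes are compared, and summed marker levels are CPM of the unscaled total. Near-identical copies were found with blastn 2.17.0. Depth was 17457796 to 19522255 counts per library, and limits given in counts cover counting error only. Replicate numbers came from the labels. Deviations from the group means correlated at 0.11 to 0.37 for 18 of 18 same-numbered pairs within a polarization. Across polarizations, 12 of 27 same-numbered pairs (median 0.08) and 10 of 54 other pairs (median -0.12) were above 0.1. Numbers were taken to pair libraries within a polarization only, although a weaker pairing across is possible. An exact permutation test of 3 against 3 cannot go below p = 0.1 and was not used. The fits were tested on simulated data with known changes between HC3 and Veh in M[0], in genes drawn from all tested genes. The reported fit found 33 of 100 genes changed by 0.5 on the log2 scale and 79 of 100 changed by 1. It made 4 false calls. Far fewer genes were changed there than were called in the data, and genes of all count levels were drawn. The shares found thus need not hold for the members. A gene that did not pass may still have changed.

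The members and gene lists were chosen with earlier results of these data known. Named members were paralog pairs, stalk proteins, Mdm2 binders, Rps6, Rpsa, Rps27a, Rpl13a, X-linked members and up to 5 largest rises and falls in each inhibitor comparison and for IL-4 with Veh, among called members with at least 50 mean counts in the higher group that moved alike in all 3 same-numbered pairs. Of other lists, up to 3 genes with the lowest FDR could be named, besides *Eif4ebp1* and *Larp1*. Not every gene that this rule names is reported here.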

Additional observations from a re-analysis of the deposited data

How the results depend on the processing

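The reported fit was set beside 15 alternatives, 13 listed at the start and 2 added after seeing the data. With the reported fit counted in, medians of the members stayed above 0 in 112 of 112 fits of the 7 inhibitor and IL-4 comparisons. The ranges were 0.33 to 0.44 (HC3 in M[0]), 0.26 to 0.39 (RSM in M[0]), 0.16 to 0.33 (HC3 in M[IL-4]) and 0.18 to 0.32 (RSM in M[IL-4]). For IL-4 they were 0.23 to 0.40 (with Veh), 0.10 to 0.21 (with HC3) and 0.17 to 0.26 (with RSM). Of 330 counts of called members, 253 stayed within 1.5 times the reported count. For the moved counts the cause was not tested, except that leaving out libraries also leaves fewer to test. Most counts in this paragraph stand without the share of all genes, so a change in them need not be particular to the members. With TMM factors computed without ribosomal and mitochondrial genes the counts of members were 1 lower for HC3 vs Veh in M[0], 2 lower for HC3 vs RSM in M[0]. With scaling by library size only the counts of members were 0 lower for RSM vs Veh in M[0], 0 lower for HC3 vs Veh in M[IL-4], 1 lower for RSM vs Veh in M[IL-4], 5 higher for M[IL-4] vs M[0] with HC3, 12 higher for M[IL-4] vs M[0] with RSM, 2 lower for HC3 vs RSM in M[0], 1 lower for HC3 by IL-4 interaction. Without the count filter the counts of members were 1 lower for HC3 vs Veh in M[0], 29 higher for M[IL-4] vs M[0] with HC3, 45 higher for M[IL-4] vs M[0] with RSM, 2 lower for HC3 vs RSM in M[0], 2 lower for HC3 by IL-4 interaction, 2 lower for RSM by IL-4 interaction. With length and GC offsets the counts of members were 2 lower for HC3 vs Veh in M[0], 5 lower for HC3 vs RSM in M[0], 1 lower for HC3 by IL-4 interaction, 2 lower for RSM by IL-4 interaction. With the replicate block over all 6 groups the counts of members were 1 lower for HC3 vs Veh in M[0], 40 higher for M[IL-4] vs M[0] with RSM, 3 lower for HC3 vs RSM in M[0], 3 lower for HC3 by IL-4 interaction, 1 lower for RSM by IL-4 interaction. With the replicate block within each polarization the counts of members were 2 lower for HC3 vs Veh in M[0], 42 higher for M[IL-4] vs M[0] with HC3, 1 lower for M[IL-4] vs M[0] with HC3, 62 higher for M[IL-4] vs M[0] with RSM, 1 lower for M[IL-4] vs M[0] with RSM, 9 higher for HC3 vs RSM in M[0], 5 lower for HC3 vs RSM in M[0], 5 lower for HC3 vs RSM in M[IL-4], 11 lower for HC3 by IL-4 interaction, 5 lower for RSM by IL-4 interaction. With the replicate block together with length and GC offsets the counts of members were 3 lower for HC3 vs Veh in M[0], 32 higher for M[IL-4] vs M[0] with HC3, 42 higher for M[IL-4] vs M[0] with RSM, 1 lower for M[IL-4] vs M[0] with RSM, 5 lower for HC3 vs RSM in M[0], 4 lower for HC3 vs RSM in M[IL-4], 5 lower for HC3 by IL-4 interaction, 1 higher for RSM by IL-4 interaction, 2 lower for RSM by IL-4 interaction. With only the groups compared in the fit the counts of members were 1 lower for HC3 vs Veh in M[0], 1 lower for RSM vs Veh in M[0], 0 lower for HC3 vs Veh in M[IL-4], 1 higher for HC3 vs RSM in M[IL-4], 0 lower for HC3 vs RSM in M[IL-4]. With DESeq2 the counts of members were 3 lower for HC3 vs RSM in M[0], 4 lower for HC3 by IL-4 interaction, 3 lower for RSM by IL-4 interaction. Leaving out a replicate number or 1 of the added libraries gave 34 to 67 higher for HC3 vs Veh in M[0], 0 to 1 lower for HC3 vs Veh in M[0], 30 to 59 higher for RSM vs Veh in M[0], 0 to 4 lower for RSM vs Veh in M[0], 0 to 2 lower for HC3 vs Veh in M[IL-4], 1 to 4 lower for RSM vs Veh in M[IL-4], 13 to 67 higher for M[IL-4] vs M[0] with Veh, 0 to 17 higher for M[IL-4] vs M[0] with HC3, 0 to 1 lower for M[IL-4] vs M[0] with HC3, 3 to 34 higher for M[IL-4] vs M[0] with RSM, 2 to 5 higher for HC3 vs RSM in M[0], 0 to 2 lower for HC3 vs RSM in M[0], 1 to 2 higher for HC3 vs RSM in M[IL-4], 0 to 1 lower for HC3 vs RSM in M[IL-4], 0 to 1 lower for HC3 by IL-4 interaction. Members higher in none of the 4 inhibitor comparisons were 17 as reported (65.8% of all genes). They numbered 6 with the replicate block within each polarization (58.6%) and 10 with the replicate block together with length and GC offsets (60.2%). With a library or number left out they numbered 10 to 41 (65.6 to 79.1%). Members higher in all 4 numbered 23 to 47 (4.92 to 13.5% of all genes). These counts over settings were added after seeing the data. Sign changes occurred in 26 of 3000 values of the 36 members named by rule, none of them called in the reported fit: Rpl11 in RSM vs Veh in M[0] (0.0501, 0.0052, 0.003, and -0.12 to 0.0856 with a library or number left out), Rpl11 in HC3 vs Veh in M[IL-4] (0.0296 and 0.0004, and -0.11 to 0.0853 with a library or number left out), Rpl22l1 in HC3 vs Veh in M[IL-4] (-0.0367 to 0.16 with a library or number left out), Rpl36al in HC3 vs Veh in M[IL-4] (0.0356, 0.0199, 0.0084, and -0.51 to 0.64 with a library or number left out), Rpl11 in RSM vs Veh in M[IL-4] (-0.18 to 0.0105 with a library or number left out), Rpl36al in RSM vs Veh in M[IL-4] (-0.75 to 0.0911 with a library or number left out), Rpl10 in M[IL-4] vs M[0] with Veh (-0.0161, -0.0345, -0.0333, and -0.0122 to 0.12 with a library or number left out), Rpl39l in M[IL-4] vs M[0] with Veh (-0.45 to 0.0328 with a library or number left out), Rps27 in M[IL-4] vs M[0] with Veh (-0.0348, -0.0997, -0.0883, and -0.24 to 0.20 with a library or number left out), under scaling by library size only, the length and GC offsets, the block with those offsets, only the groups compared, or a left-out library. Among those 3000 values 2637 kept their direction and side of the threshold, 109 gained the call and 228 lost it. Same-numbered libraries of a polarization varied together. The replicate block within each polarization gave more members higher in each of the 7 comparisons, while in the comparisons across polarizations that block is nested in the groups and understates the error. The 4 lowest members rest on 5 to 115 counts per library, which limits what can be called for them.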
